A study of Mus musculus with 35 samples.

Results

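Eosinophils of the mouse spleen were compared with neutrophils and basophils of the same organ. The arrays were chosen by their titles: 2 eosinophil arrays, 2 neutrophil arrays and 2 basophil arrays, which are 6 of the 35 arrays of the series. All 6 held total RNA of cells sorted by flow cytometry from male C57BL/6J mice aged 8 weeks, and the labels name no treatment, transgene or deletion for any of them. The surface markers used to sort the 3 granulocyte types were not stated. Nothing in the labels says that the replicates came from separate mice, so p-values measure a spread between arrays that may be technical. In the main fit that spread was estimated from these 6 arrays together with monocyte and progenitor arrays of the series. A gene was taken as eosinophil-specific where both eosinophil arrays lay above all 4 other arrays, and 2477 of 18193 genes, 13.6%, met that rule. Levels are the deposited log2 values, and each gene was read from its brightest probe set, by the mean of all 35 arrays.

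Eosinophils are granulocytes that mature in the bone marrow under interleukin 5 and take part in immunity to parasites and in allergic inflammation. Their large granules hold cationic proteins, chiefly major basic protein and eosinophil peroxidase, which are made while the cell still matures. GATA1, C/EBP factors and PU.1 direct the lineage, and basophils, which share GATA1 and much of the mediator machinery, are regarded as close relatives.

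Promoter windows of 4 genes that define the cell are printed because their transcripts separated eosinophils from the other granulocytes and because the GATA factors that direct the lineage bind a short, searchable motif. The genes are Prg3, a paralogue of major basic protein, Epx, the eosinophil peroxidase, Il5ra, the alpha chain of the interleukin 5 receptor, and Siglecf, a sialic-acid-binding inhibitory receptor. Each window spans 250 bases before to 50 bases after the annotated start, 300 bases in all, from RefSeq on GRCm38.p6, 5′ to 3′ on the gene's own strand. Capitals mark matches, on either strand, to AGATAA and its variant with a final G, AGATAG, and to TGATAA with its own variant, TGATAG. The windows lie at chr2:84987965-84988264 on the plus strand for Prg3, at chr11:87875487-87875786 on the minus strand for Epx, at chr6:106748988-106749287 on the minus strand for Il5ra and at chr7:43351091-43351390 on the plus strand for Siglecf.
Prg3: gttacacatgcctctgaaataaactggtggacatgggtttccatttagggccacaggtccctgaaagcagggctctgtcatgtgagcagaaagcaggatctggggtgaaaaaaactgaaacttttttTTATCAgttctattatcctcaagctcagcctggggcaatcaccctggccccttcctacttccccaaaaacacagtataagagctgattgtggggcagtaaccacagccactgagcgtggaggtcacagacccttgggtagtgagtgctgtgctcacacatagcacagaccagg
Epx: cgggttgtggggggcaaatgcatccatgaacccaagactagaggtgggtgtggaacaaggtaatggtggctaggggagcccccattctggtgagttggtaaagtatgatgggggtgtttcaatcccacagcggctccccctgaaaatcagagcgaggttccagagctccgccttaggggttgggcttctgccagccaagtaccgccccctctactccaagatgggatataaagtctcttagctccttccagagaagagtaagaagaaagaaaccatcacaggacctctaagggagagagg
Il5ra: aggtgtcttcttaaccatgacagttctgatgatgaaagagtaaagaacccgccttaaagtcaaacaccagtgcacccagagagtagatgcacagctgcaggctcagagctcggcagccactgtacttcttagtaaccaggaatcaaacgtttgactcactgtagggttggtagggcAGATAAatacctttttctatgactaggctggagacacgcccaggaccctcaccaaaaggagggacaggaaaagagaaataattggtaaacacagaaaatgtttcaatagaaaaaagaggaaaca
Siglecf: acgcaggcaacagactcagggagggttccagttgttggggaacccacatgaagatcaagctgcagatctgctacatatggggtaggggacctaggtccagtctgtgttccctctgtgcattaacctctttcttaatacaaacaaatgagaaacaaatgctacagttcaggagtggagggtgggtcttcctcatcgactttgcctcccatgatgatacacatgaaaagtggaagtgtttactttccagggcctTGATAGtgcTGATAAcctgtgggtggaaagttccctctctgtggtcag
The Prg3 window held 1 match, TGATAA on the opposite strand, 123 bases before the start. The Il5ra window held 1 match, AGATAA, 74 bases before the start. The Siglecf window held 2 matches, TGATAG and TGATAA, both after the start. No match was found in the Epx window. At least 1 such match was found in 29.8% of all 32851 windows from RefSeq. Of the windows of the 15 genes with the largest rises described later, 10 were available and 4 of them, 40.0%, held a match, against 4 of 14, 28.6%, for the 15 largest falls. A match was held by 20.2% of 544 windows of genes above all 4 other arrays by at least 1 log2 unit and by 16.8% of 546 windows of genes below them by as much, both under the share of all windows.

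Differences between groups were fitted with limma over 20 arrays that share 1 estimate of the spread, with 12077 genes tested. A gene was called where the Benjamini-Hochberg adjusted p was under 0.05 and the difference was at least 1 log2 unit. Set against the mean of the neutrophil and basophil means, 1989 genes rose in eosinophils, 16.5% of those tested, and 1601 fell, 13.3%. Set against neutrophils alone, 2794 genes rose, 23.1%, and 2101 fell, 17.4%. Set against basophils alone, 1130 genes rose, 9.36%, and 1363 fell, 11.3%. Without eosinophil replicate 2, 1089 genes rose against the combined mean, and 632 rose and 897 fell against basophils.

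Across all genes the replicates of each cell type had Pearson correlations of 0.987 for eosinophils, 0.993 for neutrophils and 0.988 for basophils. Eosinophil and basophil arrays had correlations of 0.933 to 0.942, against 0.854 to 0.890 for eosinophil and neutrophil arrays, given here as descriptions. In both single comparisons together, 591 genes rose against neutrophils and against basophils, and 593 fell against both. The lowest value of the table, 2.30, is shared by 43.6% to 47.2% of the probe sets on each of the 6 arrays, so a level of 2.30 is an upper bound. Where a whole group lay at that value, a fold is given as a lower limit, set against the common minimum.

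**Figure D1:**
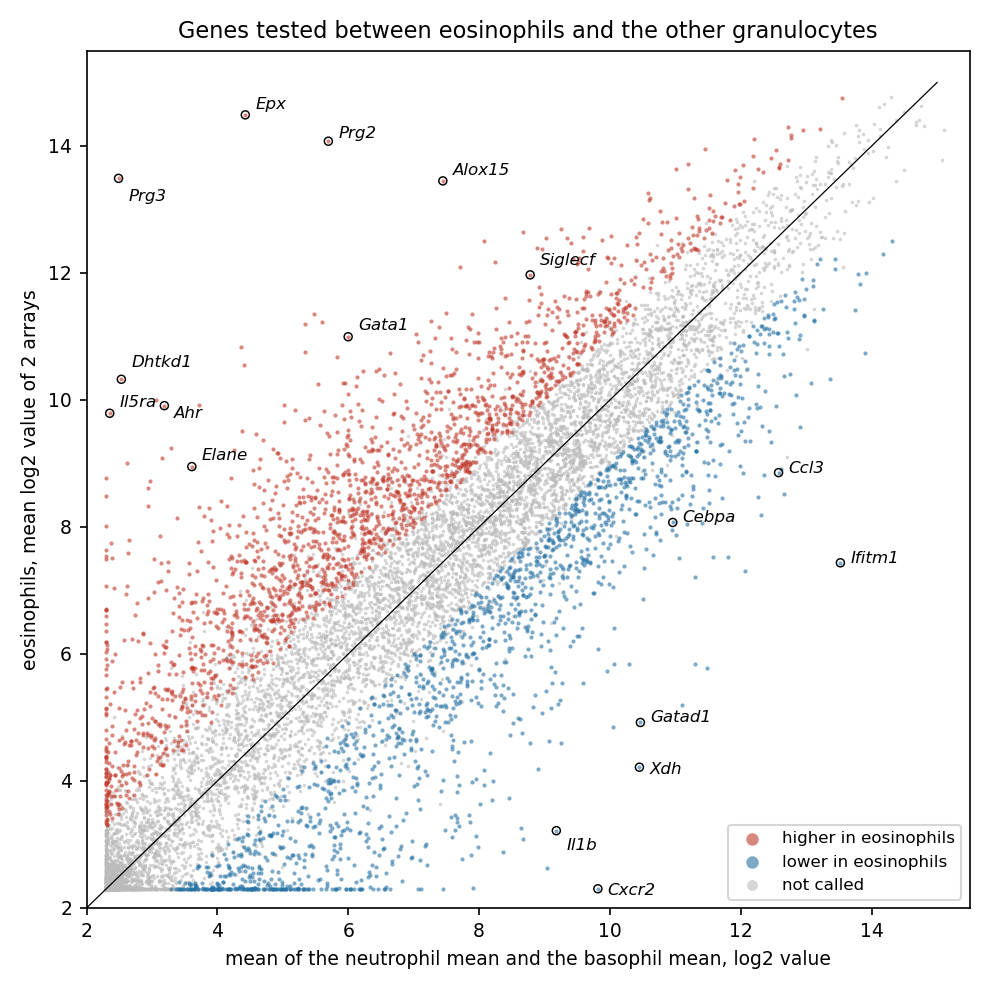
Each point is a gene; the vertical axis gives the mean log2 level of the 2 eosinophil arrays and the horizontal axis the mean of the neutrophil and basophil means. The genes called higher in eosinophils number 1989 and those called lower 1601, and Prg3, Epx, Prg2, Dhtkd1 and Il5ra have the 5 largest of the rises without overlap while Cxcr2 stands at the eosinophil minimum.

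The rule of both arrays above all 4 others is a description and was given no test. At a margin of at least 1 log2 unit the 2477 genes came down to 525, and at margins of at least 3 and 5 log2 units to 60 and 12. In the other direction 1908 genes, 10.5%, had both eosinophil arrays below all 4 others, 486 of them by at least 1 log2 unit and 3 by at least 5. At the edge of the rule, Slc25a2 passed with a margin of 2.3e-05 log2 units and Syn3 missed it by 5.4e-05. All 6 arrays lay at the common minimum for 5498 genes.

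The cells' label was checked against markers. All 8 eosinophil markers with a probe set, Prg2, Prg3, Epx, Il5ra, Siglecf, Alox15, Ccr3 and Adgre1, were above the minimum on both eosinophil arrays, and their mean level was 12.09 and 11.57 there. That mean was 3.97 and 4.12 on the neutrophil arrays and 6.84 and 6.02 on the basophil arrays. The mean of the 8 neutrophil markers was 9.31 and 9.61 in eosinophils, against 13.93 and 13.78 in neutrophils and 11.39 and 10.70 in basophils. In eosinophils 5 of those 8 lay over a level of 6, among them S100a8 and S100a9, while Cxcr2 was at the minimum. The mean of the 7 basophil markers was 6.41 and 6.70 in eosinophils, against 3.62 and 4.50 in neutrophils and 13.46 and 13.51 in basophils. In eosinophils 4 of those 7 lay over a level of 6, while Cd200r3 was at the minimum. Signal of these markers may come from few cells with much RNA or from many cells with little, which arrays of bulk RNA cannot tell apart.

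Markers of other spleen cells differed by cell type. The mean of the 3 T cell markers was 2.32 and 2.48, that of the 4 natural killer cell markers 2.66 and 2.66, and that of the 5 B cell markers 3.73 and 2.78. The 5 monocyte markers averaged 6.71 and 6.37 in eosinophils, against 4.81 and 4.84 in neutrophils and 8.58 and 7.72 in basophils, with 2 of 5 over a level of 6 on each eosinophil array. The 3 erythroid markers averaged 5.29 and 5.10 in eosinophils, against 2.31 and 2.62 in neutrophils and 7.14 and 5.63 in basophils. Monocyte and erythroid markers thus lay between those of the other granulocytes. The 6 red pulp macrophage markers averaged 5.71 and 6.58 in eosinophils, against 4.53 and 5.63 in neutrophils and 5.40 and 3.67 in basophils, with 2 of 6 over a level of 6 on each eosinophil array. The part of monocyte, macrophage or erythroid RNA in the results was not tested.

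**Figure D2:**
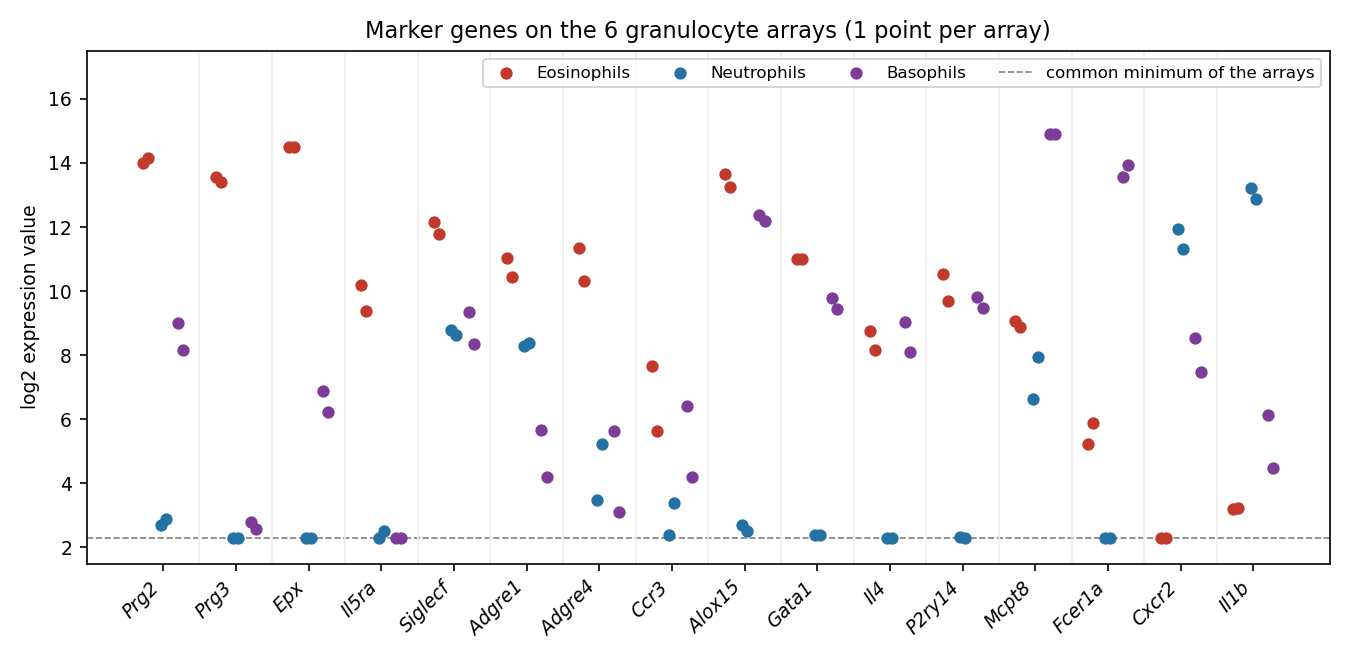
Log2 level of 16 genes on each of the 6 arrays, with 1 point per array and cell types in the order eosinophils, neutrophils, basophils; the dashed line is the common minimum of 2.30. Prg3 and Il5ra reach over 9 on both eosinophil arrays and stay under 3 on the other 4, while Alox15, Gata1, Il4 and P2ry14 are high in eosinophils and basophils alike.

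The granule proteins gave the largest differences of the comparison. Of 9 listed granule proteins 5 were tested, and Prg3, Epx and Prg2 rose against neutrophils, against basophils and against both together, with no fall. The median difference of the 5 was 8.38 log2 units against the combined mean, where the median of all tested genes was 0.00. Prg3 read 13.56 and 13.42 in eosinophils, 2.30 and 2.30 in neutrophils and 2.78 and 2.57 in basophils. Its groups did not overlap, and the smallest gap between an eosinophil array and any other was 10.64 log2 units. In limma Prg3 was 11.01 ± 0.49 log2 units higher against the combined mean (SE, adjusted p = 5.19e-09) and at least 2350-fold higher than in neutrophils (adjusted p = 1.18e-08).

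Epx, which makes hypohalous acids from hydrogen peroxide, read 14.49 and 14.49 in eosinophils, 2.30 and 2.30 in neutrophils and 6.88 and 6.22 in basophils. Its level was at least 4680-fold higher than in neutrophils (limma, adjusted p = 7.93e-08) and 246-fold higher than in basophils (adjusted p = 1.17e-05). Prg2, the gene of major basic protein, read 14 and 14.15 in eosinophils, 2.69 and 2.90 in neutrophils and 9.02 and 8.17 in basophils. The basophil arrays thus carried Prg2 at intermediate levels, well above neutrophils and well below eosinophils. Prg2 was 5.48 ± 0.93 log2 units, or 44.6-fold, higher than in basophils (limma, adjusted p = 0.00103). The eosinophil-associated ribonucleases Rnase2a and Rnase2b were at the minimum on both eosinophil arrays. Ear1, Ear2, Ear6 and Ear10 were not analysed here.

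Surface receptors that define eosinophils also rose. Il5ra, through which interleukin 5 drives the lineage, read 10.20 and 9.38 in eosinophils, 2.30 and 2.51 in neutrophils and 2.30 and 2.30 in basophils. No other granulocyte array came within 6 log2 units of the lower eosinophil array, and Il5ra was 7.44 ± 0.36 log2 units higher against the combined mean (limma, adjusted p = 1.08e-08). Siglecf read 12.16 and 11.78 in eosinophils, 8.80 and 8.64 in neutrophils and 9.34 and 8.34 in basophils, a 9.13-fold rise (limma, adjusted p = 1.56e-05). Siglecf was thus measured well above the minimum in all 3 cell types and differed by less than Il5ra did. Adgre1, the gene of the F4/80 antigen, read 11.03 and 10.45 in eosinophils, 8.29 and 8.39 in neutrophils and 5.66 and 4.19 in basophils. It rose by 2.40 ± 0.62 log2 units against neutrophils (limma, adjusted p = 0.00671, and 0.0517 without eosinophil replicate 1) and by 5.81 ± 0.62 against basophils (adjusted p = 3.11e-05).

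Adgre4, another adhesion G protein-coupled receptor of the F4/80 family, read 11.35 and 10.32 in eosinophils, 3.49 and 5.22 in neutrophils and 5.64 and 3.11 in basophils. Both comparisons gave about the same rise, 6.48 ± 0.78 log2 units against neutrophils and 6.46 ± 0.78 against basophils (limma, adjusted p = 2.55e-05 and 8.22e-05). Ccr3, the eotaxin receptor, read 7.66 and 5.63 in eosinophils, 2.38 and 3.38 in neutrophils and 6.41 and 4.20 in basophils. Eosinophils and basophils overlapped for Ccr3, and only the rise against neutrophils was called in the single comparisons (3.77 ± 0.83 log2 units, limma, adjusted p = 0.00259). Its call against the combined mean (2.55 log2 units, adjusted p = 0.0148) was lost without eosinophil replicate 1, where the difference was 1.54 and the adjusted p 0.211. Of the 18 tested genes of the eosinophil surface list, 8 rose and 6 fell against the combined mean, with a median difference of 0.67 log2 units. The shares were 44.4% and 33.3%, where all genes had 16.5% and 13.3%.

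Cd9, a tetraspanin of the integrins and adhesion list, read 7.37 and 6.82 in eosinophils, 10.25 and 9.92 in neutrophils and 9.95 and 9.82 in basophils (-2.89 ± 0.38 log2 units, limma, adjusted p = 9.9e-05). Kit, the receptor of stem cell factor, read 8.41 and 8.21 in eosinophils, 4.28 and 5.22 in neutrophils and 2.56 and 2.82 in basophils. Kit rose against both, by 3.56 ± 0.63 log2 units over neutrophils and 5.62 ± 0.63 over basophils (limma, adjusted p = 0.000586 and 5.1e-05), and its other probe set was near the minimum on all 6 arrays.

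The partners and kinases of Il5ra did not rise with it. Of 19 tested genes of interleukin 5 and GM-CSF receptor signalling, 2 rose and 7 fell against the combined mean. That is 10.5% and 36.8%, where all genes had 16.5% and 13.3%. The median difference was -0.57 log2 units, and the number of risers ranged over 1 to 4 when 1 array was left out, with the lowest count without eosinophil replicate 2. Csf2rb, the beta chain that Il5ra shares with the receptors of interleukin 3 and GM-CSF, read 10.66 and 10.09 in eosinophils, 12.42 and 12.03 in neutrophils and 13.21 and 12.98 in basophils. The eosinophil arrays were the lowest of the 6, and Csf2rb fell by 2.29 ± 0.17 log2 units (limma, adjusted p = 1.04e-06). Il3ra, the alpha chain of the interleukin 3 receptor, read 7.55 and 8.78 in eosinophils, 5.40 and 5.55 in neutrophils and 8.82 and 8.97 in basophils. It rose against neutrophils (2.68 ± 0.51 log2 units, limma, adjusted p = 0.000972) and was not called against basophils (adjusted p = 0.358).

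Csf2ra, the alpha chain of the GM-CSF receptor, read 9.57 and 9.05 in eosinophils, 12.85 and 12.81 in neutrophils and 8.70 and 8.19 in basophils. It fell against neutrophils (-3.52 ± 0.52 log2 units, limma, adjusted p = 0.000147). A second Csf2ra probe set read 9.73 and 9.85 in eosinophils, 10.10 and 10.27 in neutrophils and 6.93 and 6.12 in basophils, so both probe sets read higher in eosinophils than in basophils. Against the combined mean they differ in sign, at -1.33 log2 units for the first and 1.44 for the second. Of the kinases that carry the signal, Jak1 read 9.60 and 9.13 in eosinophils, 11.46 and 11.47 in neutrophils and 10.83 and 10.46 in basophils (-1.69 ± 0.23 log2 units, limma, adjusted p = 0.00014). Jak2, which binds the beta chain, read 9.80 and 9.58 in eosinophils, 10.50 and 10.46 in neutrophils and 12.50 and 12.36 in basophils (-1.77 ± 0.29 log2 units, adjusted p = 0.000479). Socs3, a feedback inhibitor of cytokine receptors, read 2.84 and 4.03 in eosinophils, 10.77 and 10.40 in neutrophils and 5.67 and 3.45 in basophils. Its fall was called against neutrophils (-7.15 ± 0.87 log2 units, limma, adjusted p = 2.99e-05) and not against basophils (adjusted p = 0.419).

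Transcription factors split in both directions. Against the combined mean 33.3% of the granulocyte list rose and 25.0% fell, where all genes had 16.5% and 13.3%. Of 36 tested factors of the granulocyte list 12 rose and 9 fell against the combined mean, with a median of -0.55 log2 units, and 6 rose without eosinophil replicate 2. Gata1, the zinc finger factor required for eosinophil development, read 10.99 and 11.00 in eosinophils, 2.38 and 2.38 in neutrophils and 9.79 and 9.44 in basophils. Both eosinophil arrays lay above the basophil arrays, but the difference of 1.38 ± 0.50 log2 units was not called (limma, adjusted p = 0.0668). That call depended on the setting: the adjusted p was 0.0069 with the 6 arrays alone and 0.0323 after quantile normalisation. Against neutrophils Gata1 rose by 8.61 ± 0.50 log2 units (adjusted p = 4.78e-08). Gata2, which marks basophil, mast cell and stem cell programmes, read 7.84 and 8.06 in eosinophils, 4.80 and 5.79 in neutrophils and 13.80 and 13.96 in basophils. Eosinophils thus lay between the other cell types for Gata2, 2.66 ± 0.39 log2 units above neutrophils and 5.93 below basophils (limma, adjusted p = 0.00013 and 4.29e-07).

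Cebpa, a factor of granulocyte commitment, read 7.98 and 8.16 in eosinophils, 9.02 and 8.86 in neutrophils and 12.96 and 13 in basophils. It fell by 4.91 ± 0.27 log2 units against basophils (limma, adjusted p = 8.49e-08). Its difference from neutrophils, -0.87 log2 units, was under the size needed for a call. Runx1, a core haematopoietic factor, read 5.93 and 6.20 in eosinophils, 7.35 and 7.19 in neutrophils and 10.86 and 10.93 in basophils (-4.83 ± 0.34 log2 units against basophils, adjusted p = 7.15e-07). Spi1, the gene of PU.1, read 8.18 and 8.23 in eosinophils, 10.16 and 9.70 in neutrophils and 7.70 and 7.23 in basophils. It fell against neutrophils (-1.72 ± 0.34 log2 units, limma, adjusted p = 0.00126) and was not called against basophils (adjusted p = 0.147). Nfil3, a basic leucine zipper factor, read 7.24 and 6.68 in eosinophils, 10.27 and 9.91 in neutrophils and 9.84 and 8.94 in basophils (-2.78 ± 0.34 log2 units, adjusted p = 5.65e-05). Cebpa, Runx1 and Nfil3 were lower on both eosinophil arrays than on any of the other 4.

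Ahr, the ligand-activated aryl hydrocarbon receptor, read 10.39 and 9.43 in eosinophils, 3.25 and 3.38 in neutrophils and 3.37 and 2.75 in basophils. It rose by 6.72 ± 0.39 log2 units (limma, adjusted p = 8.17e-08), while its second probe set was at the minimum on all 6 arrays. Bhlhe40, a helix-loop-helix repressor, read 10.71 and 10.81 in eosinophils, 8.17 and 8.12 in neutrophils and 7.81 and 6.47 in basophils, and rose against each (2.62 ± 0.58 and 3.62 ± 0.58 log2 units, adjusted p = 0.00266 and 0.000676). Ikzf3, the zinc finger factor Aiolos known from lymphocytes, read 10.23 and 9.80 in eosinophils, 2.79 and 2.79 in neutrophils and 10.14 and 10.14 in basophils. Its level separated both eosinophils and basophils from neutrophils (7.22 ± 0.28 log2 units, limma, adjusted p = 8.59e-10) and was not called between eosinophils and basophils (adjusted p = 0.879). The other 2 Ikzf3 probe sets were near the minimum. Klf2, a quiescence-associated Krüppel-like factor, read 8.52 and 9.25 in eosinophils, 8.54 and 8.65 in neutrophils and 6.13 and 5.77 in basophils, a rise against basophils alone (2.94 ± 0.36 log2 units, adjusted p = 8.99e-05).

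Enzymes of lipid mediators differed in both directions. Of 15 tested genes of the eicosanoid list 3 rose and 4 fell against the combined mean. The 3 rises were near the 16.5% of all genes, and the falls were 26.7%, where all genes had 13.3%. Alox15, the 12/15-lipoxygenase, read 13.66 and 13.24 in eosinophils, 2.70 and 2.51 in neutrophils and 12.37 and 12.20 in basophils. Alox15 rose by 10.84 ± 0.56 log2 units against neutrophils (limma, adjusted p = 1.52e-08). Against basophils both eosinophil arrays were higher, but the difference of 1.16 ± 0.56 was not called (adjusted p = 0.163, and 0.0105 with the 6 arrays alone). Tbxas1, thromboxane synthase, read 9.33 and 9.24 in eosinophils, 7.98 and 8.05 in neutrophils and 5.43 and 5.97 in basophils, and rose against each (1.27 ± 0.30 and 3.59 ± 0.30 log2 units, limma, adjusted p = 0.00371 and 3.57e-06). Alox5, which makes the leukotriene precursor, read 10.65 and 10.59 in eosinophils, 11.97 and 12.04 in neutrophils and 12.01 and 12.21 in basophils (-1.43 ± 0.31 log2 units, adjusted p = 0.00325). Ptgs2, the inducible cyclooxygenase, read 7.52 and 7.52 in eosinophils, 11.97 and 11.92 in neutrophils and 11.46 and 10.97 in basophils (-4.06 ± 0.86 log2 units, adjusted p = 0.00281). Alox15 and Tbxas1 were thus highest in eosinophils, and Alox5 and Ptgs2 lowest there. Against basophils alone the calls of Alox5 and Ptgs2 depended on single arrays. A second Ptgs2 probe set read 2.30 and 2.30 in eosinophils, 6.35 and 6.0 in neutrophils and 3.05 and 2.39 in basophils. With probe sets averaged, the Ptgs2 fall against basophils was not called (-2.06 log2 units, limma, adjusted p = 0.0862).

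Cytokine genes separated eosinophils from neutrophils and from basophils by different members. Against the combined mean 4.76% of the list rose and 28.6% fell, where all genes had 16.5% and 13.3%. Of 21 tested cytokine and growth factor genes 1 rose and 6 fell against the combined mean, and 3 fell without eosinophil replicate 1. Il4, the cytokine of type 2 immunity, read 8.76 and 8.17 in eosinophils, 2.30 and 2.30 in neutrophils and 9.04 and 8.10 in basophils. Eosinophils and basophils overlapped for Il4 (-0.11 ± 0.33 log2 units, limma, adjusted p = 0.942), and both lay above neutrophils, with eosinophils at least 71.8-fold higher (adjusted p = 1.71e-08). Il6, a cytokine of acute inflammation, read 5.20 and 6.26 in eosinophils, 2.44 and 2.30 in neutrophils and 11.50 and 11.09 in basophils, and fell by 5.57 ± 0.92 log2 units against basophils (limma, adjusted p = 0.000851). Il1b, a proinflammatory cytokine of myeloid cells, read 3.20 and 3.23 in eosinophils, 13.21 and 12.88 in neutrophils and 6.14 and 4.49 in basophils (-9.83 ± 0.87 log2 units against neutrophils, adjusted p = 2.14e-06). Il1b was close to the table's minimum in eosinophils and near its top in neutrophils.

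Of 14 tested chemokine genes none rose, where 16.5% of all genes did, and 2 fell against the combined mean. The falls, 14.3%, were near the 13.3% of all genes. Ccl3, an inflammatory chemokine, read 9.52 and 8.19 in eosinophils, 10.33 and 10.54 in neutrophils and 14.74 and 14.70 in basophils (-5.86 ± 0.65 log2 units against basophils, limma, adjusted p = 4.43e-05). Against neutrophils its difference was -1.58 log2 units (adjusted p = 0.0659, and 0.036 without eosinophil replicate 1). Serpinb2, a plasminogen activator inhibitor, read 8.17 and 6.84 in eosinophils, 2.30 and 2.30 in neutrophils and 2.64 and 2.30 in basophils, at least 37.0-fold higher than in neutrophils (limma, adjusted p = 0.000775). Retnla, a secreted protein of type 2 responses, read 7.14 and 8.91 in eosinophils, 4.59 and 5.73 in neutrophils and 3.43 and 2.97 in basophils (3.84 ± 0.57 log2 units, adjusted p = 0.000254). For Serpinb2 and Retnla the eosinophil replicates differed from each other by more than 1 log2 unit and still did not overlap with the other arrays.

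Among receptors for chemoattractants more fell than rose. Of 9 tested chemokine receptors 1, Ccr3, rose and 4 fell against the combined mean, and of 26 tested chemoattractant, purine and histamine receptors 3 rose and 11 fell. The rises were 11.1% and 11.5%, where all genes had 16.5%, and the falls 44.4% and 42.3%, where all genes had 13.3%. Cxcr2, the receptor of neutrophil-attracting chemokines, read 2.30 and 2.30 in eosinophils, 11.94 and 11.32 in neutrophils and 8.53 and 7.47 in basophils. Both eosinophil arrays were at the minimum, at least 645-fold below neutrophils and at least 52.1-fold below basophils (limma, adjusted p = 9.61e-10 and 3.8e-07). Ccr1, a receptor of inflammatory chemokines, read 8.19 and 7.94 in eosinophils, 12.26 and 12.10 in neutrophils and 10.68 and 10.57 in basophils (-3.33 ± 0.47 log2 units, adjusted p = 0.000163). Adora3, an adenosine receptor, read 7.45 and 6.78 in eosinophils, 3.87 and 4.14 in neutrophils and 4.58 and 5.53 in basophils. It rose against neutrophils (3.11 ± 0.58 log2 units, limma, adjusted p = 0.000832). Its rise against basophils (2.07 log2 units, adjusted p = 0.0216) was lost without eosinophil replicate 1 (adjusted p = 0.124) or basophil replicate 1 (adjusted p = 0.165).

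P2ry14, a receptor of UDP-sugars, read 10.52 and 9.68 in eosinophils, 2.34 and 2.30 in neutrophils and 9.83 and 9.48 in basophils, and so joined Il4, Ikzf3 and Alox15 as a gene high in both eosinophils and basophils (7.78 ± 0.51 log2 units against neutrophils, limma, adjusted p = 1.37e-07). P2rx7, an ATP-gated channel, read 4.62 and 4.34 in eosinophils, 2.73 and 3.02 in neutrophils and 10.94 and 11.13 in basophils (-6.56 ± 0.33 log2 units against basophils, adjusted p = 3.8e-08). Il18r1, the interleukin 18 receptor, read 6.04 and 4.35 in eosinophils, 10.12 and 10.28 in neutrophils and 12.20 and 11.78 in basophils (-5.90 ± 0.44 log2 units, adjusted p = 9.96e-07). Of 22 tested integrins and adhesion genes 3 rose and 6 fell against the combined mean, 13.6% and 27.3% where all genes had 16.5% and 13.3%. Itga1, a collagen-binding integrin chain, read 3.99 and 2.59 in eosinophils, 2.30 and 2.73 in neutrophils and 10.33 and 10.65 in basophils. The falls of P2rx7 and Itga1 against basophils stood beside neutrophil levels that were also low.

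Receptors of microbes and immune complexes were lower chiefly against neutrophils. Of 20 tested Toll-like and Fc receptor genes none rose and 10 fell against the combined mean, with a median of -1.86 log2 units. Among all genes 16.5% rose and 13.3% fell in that comparison. Against neutrophils 11 of the 20 fell and 3 rose, where all genes had 17.4% and 23.1%. Against basophils 4 fell and 2 rose, where all genes had 11.3% and 9.36%. The 2 rises against basophils were thus near the share of all genes. Tlr2, a receptor of bacterial lipopeptides, read 3.35 and 4.72 in eosinophils, 11.23 and 10.98 in neutrophils and 5.28 and 4.31 in basophils (-7.07 ± 0.47 log2 units against neutrophils, limma, adjusted p = 1.39e-07). Tlr4, the lipopolysaccharide receptor, read 2.89 and 3.50 in eosinophils, 10.12 and 10.07 in neutrophils and 3.67 and 2.73 in basophils (-6.90 ± 0.81, adjusted p = 2.18e-05). Its coreceptor Cd14 read 2.74 and 2.58 in eosinophils, 8.44 and 8.20 in neutrophils and 3.02 and 3.0 in basophils (-5.66 ± 0.65, adjusted p = 1.84e-05). For Tlr4 and Cd14 eosinophils and basophils both lay at 3.67 or less, so that their falls were falls against neutrophils. Tlr2 lay further above the minimum in both cell types, and its eosinophil and basophil levels overlapped. Tlr5, the flagellin receptor, was at 2.30 on both eosinophil arrays, at 7.54 and 7.46 on the neutrophil arrays and at 2.30 on both basophil arrays.

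The adaptors Fcer1g, Tyrobp and Hcst read lower in eosinophils than in both other cell types. Fcer1g, the common Fc receptor gamma chain, read 11.34 and 11.14 in eosinophils, 13.34 and 13.11 in neutrophils and 12.95 and 13.06 in basophils. It fell by 1.98 ± 0.22 log2 units against neutrophils and by 1.76 ± 0.22 against basophils (limma, adjusted p = 1.24e-05 and 0.0001). Tyrobp, the adaptor DAP12, read 12.43 and 11.56 in eosinophils, 14.24 and 14.12 in neutrophils and 13.79 and 13.50 in basophils (-1.92 ± 0.21 log2 units, adjusted p = 2.25e-05). Hcst, the adaptor DAP10, read 8.65 and 8.88 in eosinophils, 10.32 and 10.21 in neutrophils and 10.25 and 10.31 in basophils (-1.50 ± 0.23, adjusted p = 0.000265). All 3 adaptors were lowest on the eosinophil arrays without overlap. Paired, lectin and inhibitory receptors rose in 9.38% and fell in 59.4% against neutrophils, where all genes had 23.1% and 17.4%. Against basophils the shares were 25.0% and 21.9%, where all genes had 9.36% and 11.3%. Of 32 tested paired, lectin and inhibitory receptors, 3 rose and 19 fell against neutrophils, while 8 rose and 7 fell against basophils, or 5 rose without basophil replicate 2. Cd300ld, an activating CD300 family receptor, read 2.69 and 2.87 in eosinophils, 10.93 and 10.61 in neutrophils and 3.54 and 2.73 in basophils (-8.00 ± 0.29 log2 units against neutrophils, adjusted p = 4.11e-10).

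Interferon-stimulated genes fell against neutrophils and were mostly not called against basophils. Of 19 tested members 1 rose and 15 fell against neutrophils, with a median of -3.01 log2 units, while 1 rose and 1 fell against basophils, with a median of -0.35. The falls were 78.9% and 5.26% in that order, where all genes had 17.4% and 11.3%. Against the combined mean 11 fell, or 6 without eosinophil replicate 2. Ifit1, an RNA-binding antiviral protein, read 2.81 and 2.32 in eosinophils, 9.37 and 8.90 in neutrophils and 4.21 and 2.81 in basophils (-6.57 ± 0.92 log2 units against neutrophils, limma, adjusted p = 9.15e-05). Oas3, an oligoadenylate synthetase, read 2.50 and 3.46 in eosinophils, 9.94 and 9.72 in neutrophils and 4.27 and 3.32 in basophils (-6.85 ± 0.51, adjusted p = 4.62e-07). Ifitm1, an interferon-induced membrane protein counted among the largest falls, differed from these in being high in both other cell types: it read 7.53 and 7.34 in eosinophils, 13.63 and 13.47 in neutrophils and 13.71 and 13.28 in basophils (-6.08 ± 0.17 log2 units, adjusted p = 5.93e-11).

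Neutrophil granule genes split by granule type. Of 7 tested primary granule genes 5 rose and 2 fell against neutrophils, with a median of 6.42 log2 units. That is 71.4% and 28.6%, where all genes had 23.1% and 17.4%. Against the combined mean 5 also rose, but 2 did so without eosinophil replicate 1. Prtn3, the serine protease proteinase 3, read 11.04 and 11.35 in eosinophils, 3.12 and 4.82 in neutrophils and 7.10 and 6.34 in basophils, and rose by 7.23 ± 0.73 and 4.47 ± 0.73 log2 units (limma, adjusted p = 6.04e-06 and 0.00073). Elane, neutrophil elastase, read 8.88 and 9.02 in eosinophils, 2.30 and 2.67 in neutrophils and 5.40 and 4.06 in basophils, and rose by 6.47 ± 0.65 and 4.22 ± 0.65 log2 units (adjusted p = 6.07e-06 and 0.000505). Mpo, myeloperoxidase, read 12.66 and 12.44 in eosinophils, 2.83 and 7.45 in neutrophils and 12.50 and 13.31 in basophils. The neutrophil replicates differed by over 4 log2 units for Mpo, and eosinophils and basophils overlapped (adjusted p = 0.977). Serpinb1a, an inhibitor of elastase and proteinase 3, read 8.63 and 8.70 in eosinophils, 10.96 and 11.05 in neutrophils and 10.10 and 10.89 in basophils (-2.09 ± 0.37 log2 units, limma, adjusted p = 0.000821).

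Genes of later granules and of mature neutrophils were lower than in neutrophils or not called. Of 13 tested secondary and tertiary granule genes none rose and 9 fell against neutrophils, with a median of -3.55 log2 units. Of 13 tested mature neutrophil genes none rose and 10 fell, with a median of -6.27. The falls of the later granule and mature lists were 69.2% and 76.9%, where all genes had 17.4%. Mmp8, a neutrophil collagenase, read 5.82 and 5.85 in eosinophils, 13.98 and 13.95 in neutrophils and 8.91 and 8.38 in basophils (-8.13 ± 1.47 log2 units against neutrophils, limma, adjusted p = 0.000641). S100a8 and S100a9, which form calprotectin, stayed high: S100a8 read 14 and 13.57 in eosinophils, 15.29 and 15.14 in neutrophils and 15.11 and 14.79 in basophils. The eosinophil arrays were the lowest for both genes, and neither was called against the combined mean (limma, adjusted p = 0.172 for S100a8 and 0.51 for S100a9). With the 6 arrays alone S100a8 was called lower, with the same difference of -1.30 log2 units (adjusted p = 0.00406).

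Basophil and mast cell genes placed eosinophils between the other cell types. Of 19 tested members 10 rose and 3 fell against neutrophils, with a median of 1.69 log2 units, while 1 rose and 10 fell against basophils, with a median of -3.40. The rises against neutrophils were 52.6%, where all genes had 23.1%, and the falls against basophils 52.6%, where all genes had 11.3%. Cpa3, a carboxypeptidase of basophil and mast cell granules, read 9.34 and 9.05 in eosinophils, 3.73 and 6.62 in neutrophils and 13.85 and 13.91 in basophils. It was 4.02 ± 0.72 log2 units higher than in neutrophils and 4.68 lower than in basophils (limma, adjusted p = 0.000612 and 0.000497). Ms4a2, the beta chain of the high-affinity IgE receptor, read 8.59 and 9.05 in eosinophils, 3.24 and 4.25 in neutrophils and 13.80 and 13.80 in basophils (5.08 ± 0.33 log2 units against neutrophils, adjusted p = 1.33e-07). A second Ms4a2 probe set read lower in eosinophils, at 2.35 and 4.78, with 2.30 and 2.30 in neutrophils and 11.65 and 11.63 in basophils. Fcer1a, its IgE-binding chain, read 5.24 and 5.89 in eosinophils, 2.30 and 2.30 in neutrophils and 13.57 and 13.93 in basophils. Mcpt8, a basophil protease, read 9.06 and 8.89 in eosinophils, 6.63 and 7.95 in neutrophils and 14.91 and 14.91 in basophils. The call of Mcpt8 against neutrophils depended on single arrays, and its difference was 1.03 log2 units without neutrophil replicate 1. Cd200r3, an activating receptor of basophils and mast cells, was at the minimum of 2.30 on both eosinophil arrays, against 2.34 and 2.30 in neutrophils and 12.52 and 12.62 in basophils. Eosinophils thus had intermediate levels of Cpa3, Ms4a2 and Mcpt8 with Cd200r3 at the minimum, and the part of basophils in the sort in these levels was not tested.

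Genes of cell division and ribosome assembly rose against neutrophils. Of 28 tested cell cycle genes 23 rose and none fell against neutrophils, with a median of 3.15 log2 units, where the median of all tested genes was 0.02. The rises were 82.1%, where all genes had 23.1%. Against basophils 1 rose and 4 fell, with a median of -0.65, and the number of falls was 2 without eosinophil replicate 1. The falls against basophils were 14.3%, near the 11.3% of all genes. The median level of the cell cycle list was 9.52 and 10.04 in eosinophils, 4.80 and 6.47 in neutrophils and 9.88 and 10.46 in basophils. Mcm3, a subunit of the replicative helicase, read 10.12 and 10.59 in eosinophils, 2.95 and 2.91 in neutrophils and 8.88 and 9.80 in basophils (7.42 ± 0.48 log2 units against neutrophils, limma, adjusted p = 1.22e-07). Hells, a chromatin remodeller of dividing cells, read 9.08 and 9.65 in eosinophils, 2.30 and 2.49 in neutrophils and 6.43 and 7.58 in basophils, and rose against each (6.97 ± 0.43 and 2.36 ± 0.43, adjusted p = 8.03e-08 and 0.00171). Pcna, the sliding clamp of DNA polymerase, read 11.80 and 11.74 in eosinophils, 8.74 and 9.11 in neutrophils and 12.13 and 12.48 in basophils.

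Among later cell cycle genes, Ccnb2 fell against basophils. Ccnb2, a mitotic cyclin, read 7.30 and 6.55 in eosinophils, 6.63 and 7.37 in neutrophils and 10.17 and 10.49 in basophils, a difference of -3.41 ± 0.43 log2 units against basophils (limma, adjusted p = 0.000112). Mki67, the gene of the Ki-67 antigen, read 11.11 and 11.55 in eosinophils, 7.99 and 9.23 in neutrophils and 12.37 and 12.94 in basophils. It rose against neutrophils (2.72 ± 0.39 log2 units, adjusted p = 0.000102). Against basophils Mki67 was called lower, by -1.33 log2 units. That call was lost with the 6 granulocyte arrays alone (limma, adjusted p = 0.0836) and without the filter on low values (0.0519).

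Of 22 tested ribosome biogenesis genes 19 rose and 1 fell against neutrophils, with a median of 3.29 log2 units, and 6 rose and 1 fell against basophils, with a median of 0.89. The rises were 86.4% and 27.3% in that order, where all genes had 23.1% and 9.36%. Without eosinophil replicate 2 only 1 member rose against basophils. Fbl, the methyltransferase fibrillarin, read 10.14 and 10.71 in eosinophils, 4.45 and 4.45 in neutrophils and 8.74 and 9.20 in basophils. Dkc1, a pseudouridine synthase, read 12.08 and 12.71 in eosinophils, 6.76 and 7.26 in neutrophils and 10.52 and 11.01 in basophils. Both genes were highest in eosinophils and rose against neutrophils (5.97 ± 0.37 for Fbl and 5.39 ± 0.42 log2 units for Dkc1, limma, adjusted p = 8.55e-08 and 6.77e-07). Their rises against basophils (adjusted p = 0.0136 and 0.0135) were lost without eosinophil replicate 2 (adjusted p = 0.128 for each) or basophil replicate 1 (adjusted p = 0.105 and 0.102). Npm1, nucleophosmin, read 11.61 and 11.66 in eosinophils, 6.99 and 7.67 in neutrophils and 11.17 and 11.36 in basophils (4.31 ± 0.34 log2 units against neutrophils, adjusted p = 7.58e-07).

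**Figure D3:**
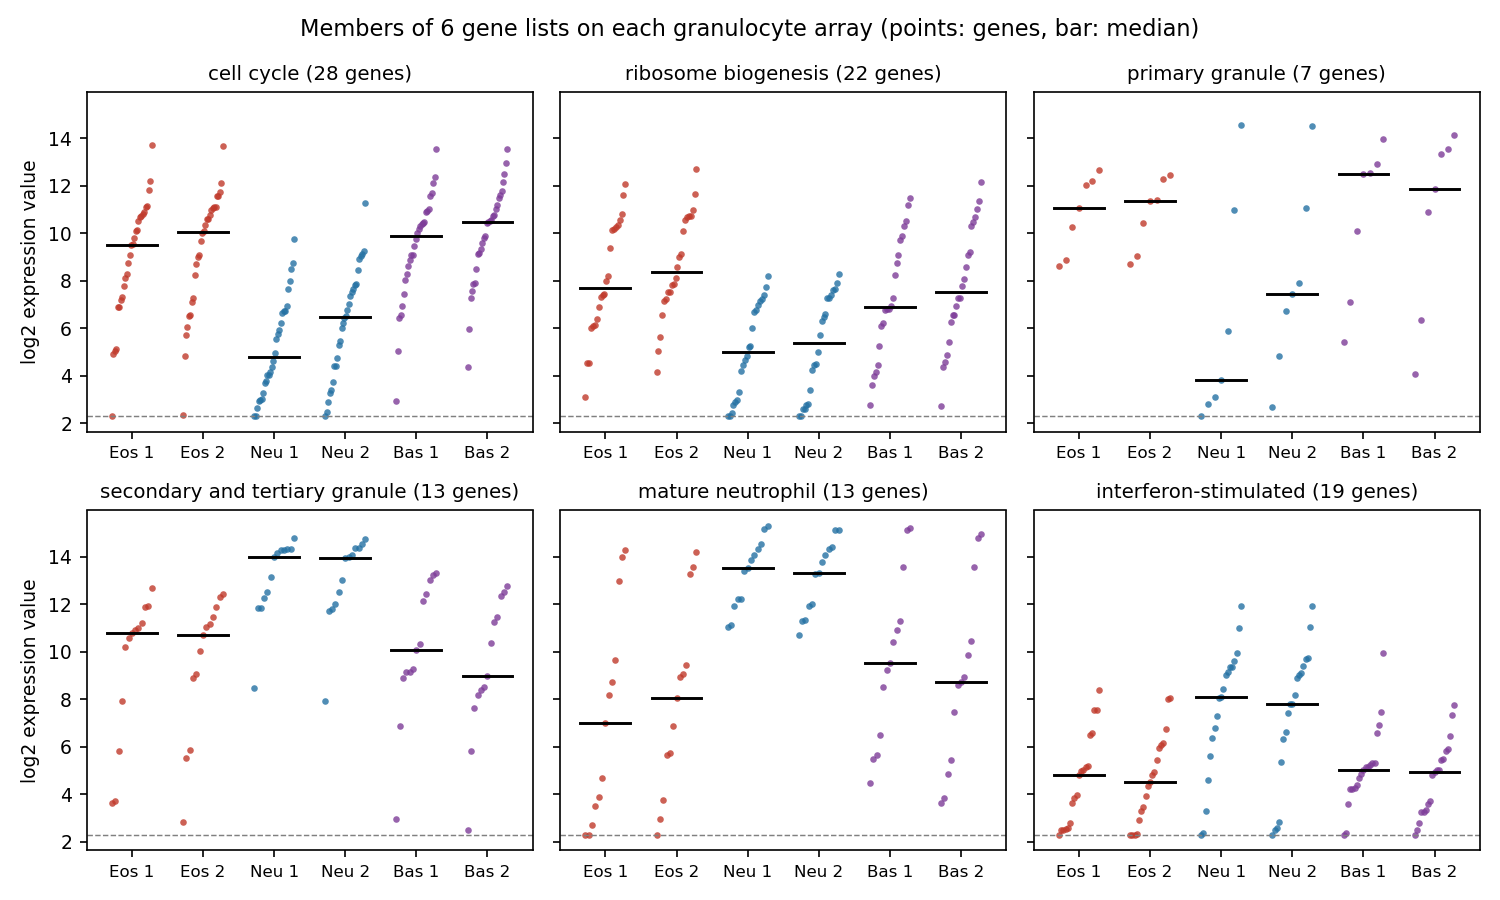
Log2 level of each tested member of 6 gene lists on each of the 6 arrays, with 1 point per gene and a bar at the median, cell types in the order eosinophils, neutrophils, basophils. The cell cycle medians of 9.52 and 10.04 in eosinophils sit near those of basophils and above the 4.80 and 6.47 of neutrophils, and the mature neutrophil and interferon-stimulated lists are highest in neutrophils.

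**Figure D4:**
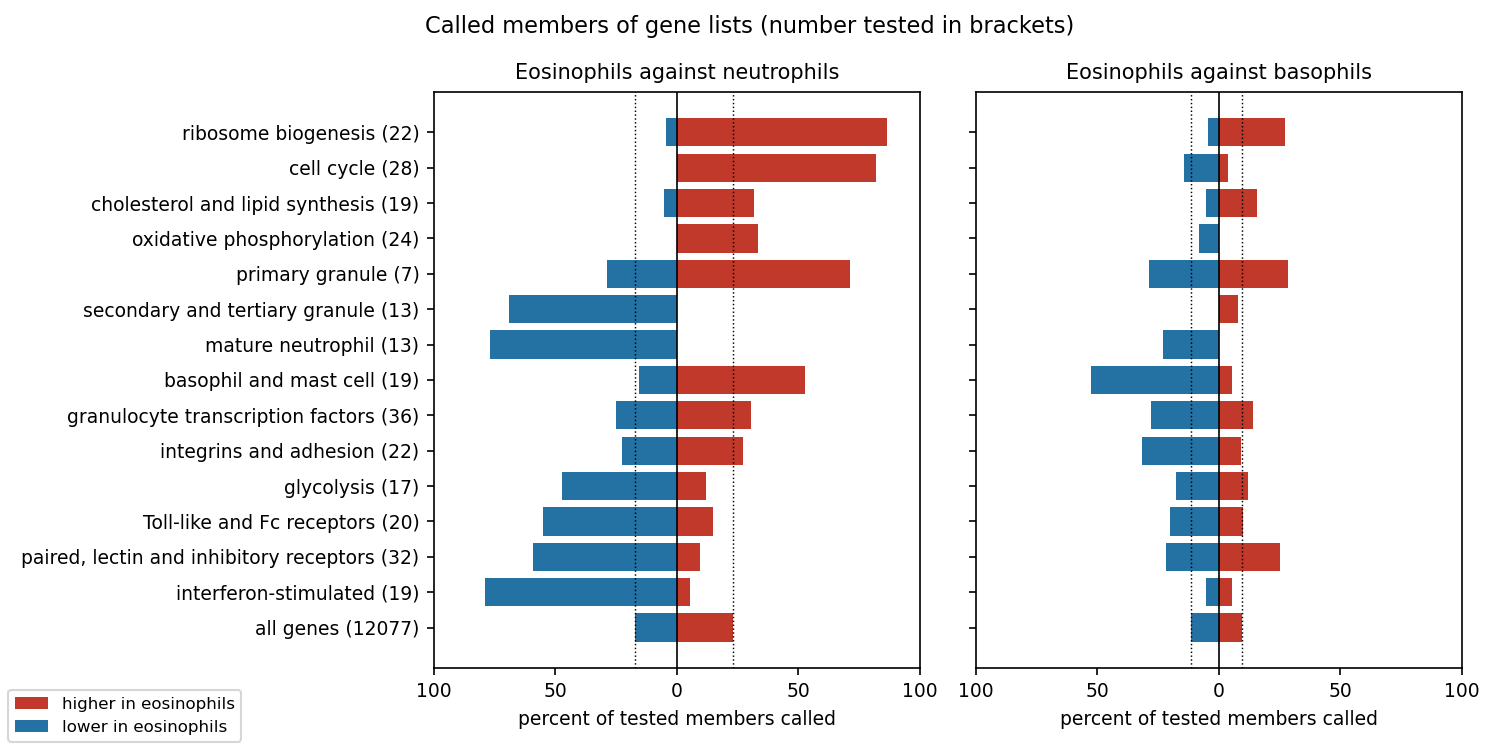
Percentage of tested members called higher or lower in eosinophils for 14 gene lists and for all genes, with the comparison against neutrophils on the left and against basophils on the right; dotted lines give the percentages over all genes. Cell cycle and ribosome biogenesis genes rise against neutrophils in 23 of 28 and 19 of 22 members, while interferon-stimulated genes fall in 15 of 19.

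The 15 largest rises against the combined mean also held enzymes, adaptors and receptors known from other tissues. Dhtkd1, a mitochondrial 2-oxoadipate dehydrogenase subunit, read 10.33 and 10.32 in eosinophils, 2.30 and 2.30 in neutrophils and 2.30 and 3.22 in basophils, 7.80 ± 0.32 log2 units higher (limma, adjusted p = 2.27e-09). Grb10, an adaptor of receptor tyrosine kinases, read 9.75 and 10.24 in eosinophils, 2.30 and 2.30 in neutrophils and 4.73 and 2.94 in basophils (6.93 ± 0.41, adjusted p = 9.5e-08), and its other 2 probe sets were at the minimum on all 6 arrays. Pdlim1, a cytoskeletal PDZ and LIM domain protein, read 9.88 and 9.97 in eosinophils, 2.94 and 2.71 in neutrophils and 4.93 and 4.27 in basophils (6.21 ± 0.37, adjusted p = 1.11e-07). These 3 genes separated eosinophils from every other granulocyte array by more than 4 log2 units. Diras2, a Ras-family GTPase, read 9.01 and 9.0 in eosinophils, 2.30 and 2.30 in neutrophils and 2.30 and 3.56 in basophils (6.40 ± 0.24, adjusted p = 1.17e-09). Pdlim1 and Diras2 also have other probe sets at the minimum on all 6 arrays.

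Pdgfrb, the beta receptor of platelet-derived growth factor, read 8.34 and 9.19 in eosinophils and was at the minimum on the other 4 arrays, so that eosinophils were at least 88.4-fold higher (limma, adjusted p = 5.05e-05 against the combined mean). Unc5c, a netrin receptor, read 8.86 and 8.10 in eosinophils and was likewise at the minimum on the other 4, with eosinophils at least 72.6-fold higher. Unc5c passed the filter on low values through the eosinophil arrays alone, so its values are given without a test, and its second probe set read 3.90 and 3.0 in eosinophils. Gria3, an AMPA receptor subunit, read 10.52 and 10.59 in eosinophils, 2.30 and 2.83 in neutrophils and 6.08 and 6.42 in basophils (6.15 ± 0.91 log2 units, limma, adjusted p = 0.000232). Naaladl1, an aminopeptidase, read 9.08 and 9.41 in eosinophils, 2.30 and 2.30 in neutrophils and 3.84 and 4.73 in basophils (5.95 ± 1.26, adjusted p = 0.0028). Against basophils alone Gria3 (adjusted p = 0.0101) lost its call without eosinophil replicate 2 (adjusted p = 0.0621) or basophil replicate 1 (0.0608), and Naaladl1 (adjusted p = 0.0264) lost it without either eosinophil array (0.0821 and 0.128) or either basophil array (0.134 and 0.0765).

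The largest falls were led by genes high in neutrophils. Cxcr2, Il1b, Il18r1, Ifitm1 and Mmp8 were among the 15. Stfa3, a stefin protease inhibitor, read 2.30 and 2.95 in eosinophils, 12.21 and 12.02 in neutrophils and 6.48 and 5.44 in basophils (-6.41 ± 0.26 log2 units, limma, adjusted p = 2.47e-09). Stfa2l1, of the same family, read 4.68 and 6.87 in eosinophils, 14.05 and 14.05 in neutrophils and 9.23 and 8.61 in basophils (-5.71 ± 0.99, adjusted p = 0.000722). Stefin genes are near-identical copies, so their probe sets may share signal. Xdh, xanthine dehydrogenase, read 3.99 and 4.44 in eosinophils, 12.09 and 12.19 in neutrophils and 9.05 and 8.47 in basophils (-6.24 ± 0.58, adjusted p = 6.22e-06). Bst1, an ADP-ribosyl cyclase on the cell surface, read 2.58 and 3.19 in eosinophils, 11.70 and 11.60 in neutrophils and 5.23 and 4.92 in basophils (-5.48 ± 0.35, adjusted p = 2.15e-07). Rin2, a Rab5 exchange factor, read 3.31 and 2.35 in eosinophils, 11.13 and 10.75 in neutrophils and 5.42 and 4.20 in basophils (-5.05 ± 0.41, adjusted p = 1.69e-06). These genes had basophil levels between those of eosinophils and neutrophils. Against basophils alone Stfa2l1 was not called in the main fit. It was called with the 6 granulocyte arrays alone (-3.14 log2 units, limma, adjusted p = 0.0282). The call of Rin2 against basophils depended on single arrays.

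Scrg1, H2-Q10 and Slfn1 had the same order of cell types. Scrg1 read 2.30 and 3.86 in eosinophils, 11.95 and 12.15 in neutrophils and 4.65 and 5.93 in basophils. H2-Q10, a class Ib histocompatibility gene with close paralogues, read 2.36 and 4.15 in eosinophils, 11.35 and 11.35 in neutrophils and 6.78 and 5.09 in basophils. Slfn1, a Schlafen family gene, read 4.39 and 5.31 in eosinophils, 13.13 and 13.11 in neutrophils and 7.63 and 6.31 in basophils. Their differences from the combined mean were -5.59 ± 0.41, -5.39 ± 0.57 and -5.19 ± 0.83 log2 units in that order (limma, adjusted p = 7.25e-07, 1.61e-05 and 0.000418). Against basophils alone Slfn1 was not called in the main fit. The calls of Scrg1 and H2-Q10 against basophils were lost with the 6 granulocyte arrays alone (limma, adjusted p = 0.0584 and 0.0562). Elf4 and Gatad1 differed from them in being level between neutrophils and basophils. Elf4, an ETS factor, read 2.30 and 2.32 in eosinophils, 7.94 and 7.46 in neutrophils and 7.97 and 8.28 in basophils (-5.61 ± 0.37, adjusted p = 2.49e-07). Gatad1, a GATA-type zinc finger protein, read 5.36 and 4.48 in eosinophils, 10.50 and 10.35 in neutrophils and 10.42 and 10.59 in basophils (-5.54 ± 0.26, adjusted p = 7.24e-09).

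The same genes were read on the other 29 arrays of the series, which hold monocytes, macrophages and progenitors, as a description. No other array reached the lower eosinophil array for Prg2, Prg3, Epx, Il5ra, Siglecf, Alox15, Gata1, Dhtkd1, Diras2, Grb10, Pdgfrb, Pdlim1, Unc5c or Naaladl1. For Pdlim1 the margin was small, with 9.82 on an inflammatory monocyte array against 9.88, and its median over the 29 was 8.03. Grb10 reached 9.42 on the GMP array against 9.75, and Naaladl1 8.68 on an SMP array labelled WT against 9.08. Il5ra was at the minimum on 26 of the 29, and its highest level there was 4.66. The array labelled mSR1dullCC1dull from bone marrow came closest to eosinophils, with Prg2 at 13.09, Epx at 12.55 and Prg3 at 11.02. Over the 525 genes above all 4 other granulocyte arrays by at least 1 log2 unit, the median level on that array was 7.36, against 7.82 and 8.26 on the eosinophil arrays, 3.87 and 4.14 on the neutrophil arrays and 5.29 and 5.36 on the basophil arrays. Since those genes were chosen for being high in eosinophils, the eosinophil medians describe the choice.

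Other arrays carried some of the eosinophil genes, and several carried Prg2, Epx and Prg3 together. On the SatM array of replicate 1 these genes read 12.69, 11.11 and 8.80 in that order. On the MDP array they read 12.57, 10.66 and 8.27, and on the GMP array 11.47, 9.08 and 7.42. Prg2, Epx and Prg3 were at the minimum on 14, 18 and 21 of the 29 arrays. The 2 SMP arrays not labelled WT reached 12.41 and 12.50 for Alox15 and 8.80 and 9.39 for Gata1. The highest Siglecf outside eosinophils, 11.35, was on the array labelled MP from bronchoalveolar lavage. Ccr3 was highest on the arrays of tissue-resident M2-like macrophages, at 10.68 in bone marrow and 10.40 in spleen, and 5 of the 29 arrays exceeded the lower eosinophil array for it. Adgre4, Gria3 and Ahr exceeded the lower eosinophil array on 11, 6 and 4 of the 29.

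**Figure D5:**
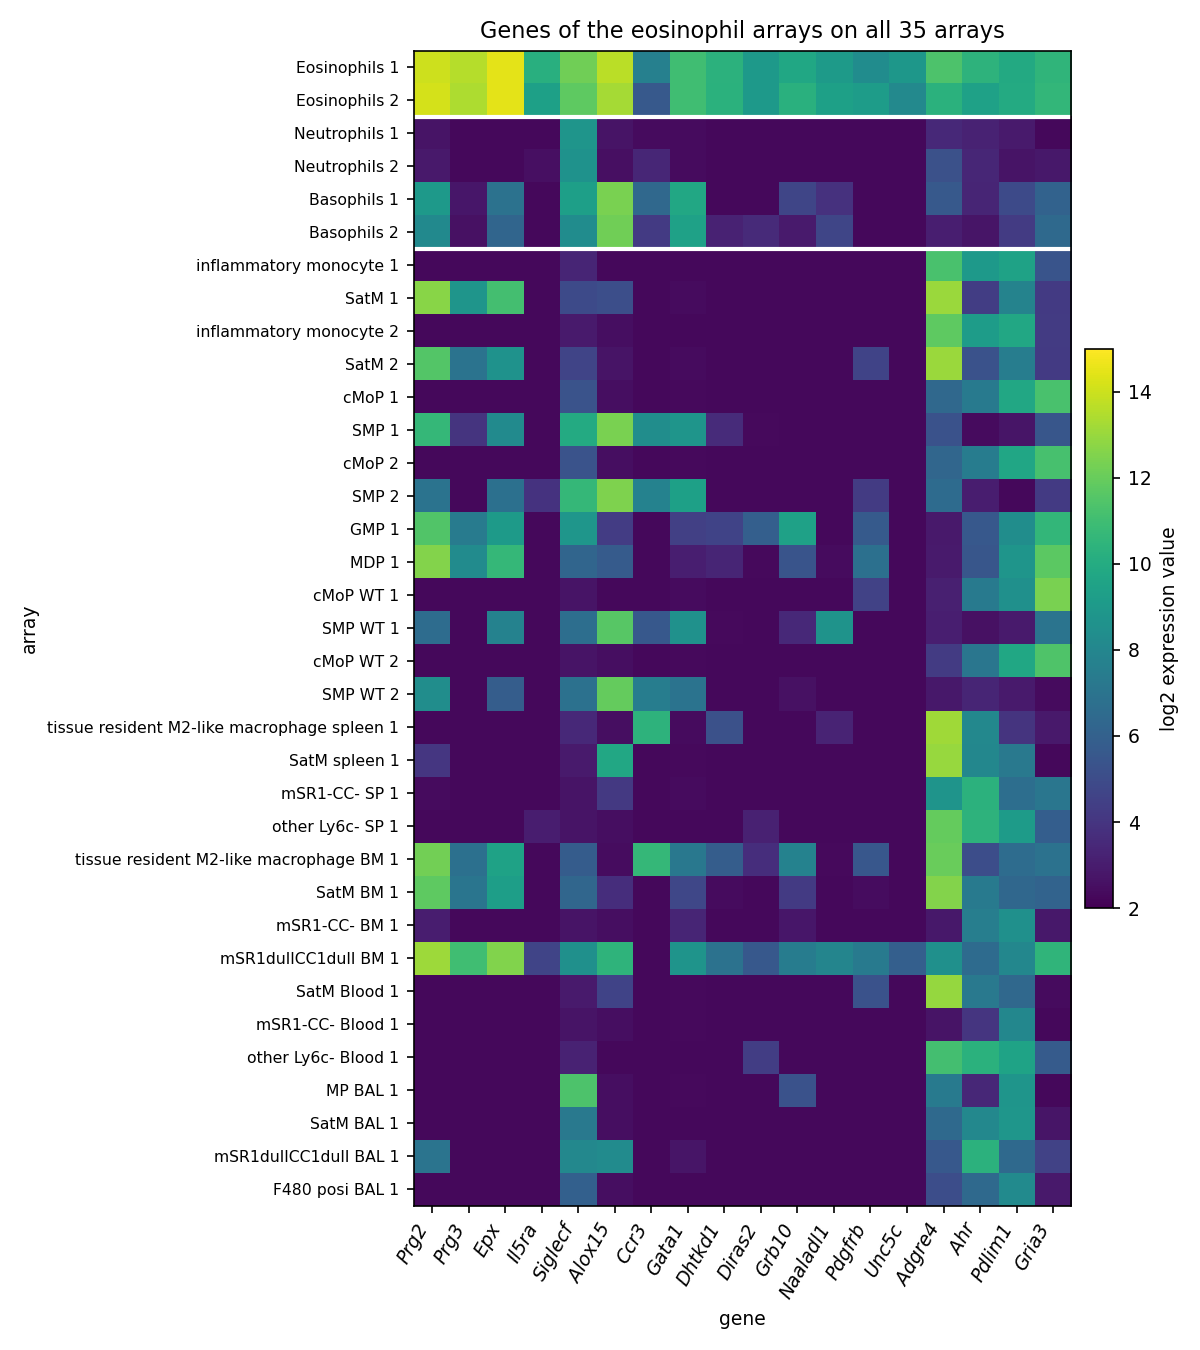
Log2 level, as colour, of 18 genes in columns on all 35 arrays in rows, with the eosinophil arrays on top; the darkest colour stands for the common minimum of 2.30. Il5ra is at the minimum on 26 of the 29 other arrays, and Adgre4, Ahr, Gria3 and Pdlim1 are high on several of them.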

How the data were processed

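The series holds 35 arrays of the Mouse430_2 type, each a sorted immune cell population, and 6 of them were compared here. The deposited table gives log2 expression values per probe set, made by the authors from their scans; the background correction and normalisation behind them were not given in the sources used here. Values run from a common minimum of 2.30 to 16.02, and 1 value is missing. Precision is limited by having 2 arrays of each cell type.

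Of 45101 probe sets, 64 are controls, 9160 carry no gene symbol in the platform annotation, 932 carry several and 34945 carry 1, of which 34741 matched an Entrez gene of the RefSeq table. The brightest probe set, by its mean across all 35 arrays, stood for each of 18193 genes, and 9010 genes had several.

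The main test was limma 3.58.1 in R 4.3.3 (lmFit, then eBayes with a trend) over 20 arrays of granulocytes, monocytes and progenitors, with cell type and a wild-type term as covariates. A gene entered the fit if it exceeded the array's own median on 2 or more of the 20 arrays. Calls needed a Benjamini-Hochberg adjusted p under 0.05 over 12077 genes and at least 1 log2 unit. Named genes were the 4 marker genes, the 15 largest called rises and falls without overlap between groups, and members of the gene lists. The members and lists were chosen with earlier results of these data known. The fit was tested on simulated data. Alternatives covered quantile normalisation, filters, the probe set rule, the arrays fitted, a replicate block and each array left out. Tables were made with Python 3.11.15, numpy 2.4.6, pandas 2.3.3 and scipy 1.17.1, and plots with matplotlib 3.10.9.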

Additional observations from a re-analysis of the deposited data

How the results depend on the processing

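The counts of called genes were 3590 for eosinophils against the combined neutrophil and basophil mean, 4895 against neutrophils and 2493 against basophils. With every probe set tested on its own they were 5826, 8059 and 3976, since more features were tested. Leaving out each array in turn gave 2178 to 3385, 3763 to 4811 and 1529 to 2344, and the low values of 2178 and 1529 came without eosinophil replicate 2. With the replicate number as a block over 18 numbered arrays the counts were 3600, 4894 and 2502, and the block over 18 arrays changed no call of the 99 genes followed by name. Eosinophils and neutrophils with the same replicate number deviated together with a correlation of 0.116, eosinophils and basophils with 0.163, and neutrophils and basophils with 0.1, and with only 2 numbers this was not taken as pairing. The 6 arrays alone gave 3943, 5283 and 3075, and the same 6 with the replicate block 4023, 5350 and 3204. After quantile normalisation 1828 genes rose and 1813 fell against the combined mean, in place of 1989 and 1601. Against neutrophils 2368 rose and 2415 fell, in place of 2794 and 2101. The larger number of rises in these comparisons thus depended on the scaling. Against basophils 1323 rose and 1418 fell, in place of 1130 and 1363. The rule of both eosinophil arrays above all 4 others held for 2477 genes, for 3837 probe sets when every probe set was taken, and for 525 genes at a margin of 1 log2 unit; in the other direction the counts were 1908, 3827 and 486. Of the named genes, Csf2ra reversed, with 0.05 log2 units against the combined mean when probe sets were averaged in place of -1.33; its 2 probe sets differ in sign there. Levels at the common minimum bound what can be seen: a gene at 2.30 in a whole group has no measured fold. With 2 arrays a group, single calls near the threshold, such as those of Gata1 and Alox15 against basophils, of S100a8 and of Ccr3 against the combined mean, depended on the arrays fitted.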

Other observations

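Metabolic gene groups not described above gave the following counts. Of 19 tested genes of cholesterol and lipid synthesis 7 rose, 36.8% where all genes had 16.5%, and 1 fell in eosinophils against the combined mean, and 2 rose without eosinophil replicate 2. Cyp51, the sterol demethylase, read 9.49 and 9.94 in eosinophils, 6.91 and 7.21 in neutrophils and 6.29 and 6.93 in basophils (2.88 ± 0.44 log2 units, limma, adjusted p = 0.000309). Of 24 tested oxidative phosphorylation genes 8 rose, 33.3% where all genes had 23.1%, and none fell against neutrophils, or 4 rose without neutrophil replicate 1. Against basophils none of them rose and 2 fell, and no member fell without eosinophil replicate 2. Among them Atp5a1, a subunit of ATP synthase, read 13.24 and 13.44 in eosinophils, 11.48 and 11.77 in neutrophils and 12.70 and 12.77 in basophils. Another Atp5a1 probe set kept this order of cell types. A further one was highest in basophils, with 10.58 and 10.48 in eosinophils, 9.54 and 9.72 in neutrophils and 10.74 and 11.10 in basophils. Of 17 tested glycolysis genes 2 rose and 8 fell against neutrophils, the falls being 47.1% where all genes had 17.4%, with a median of -0.96 log2 units. Lamp1, a lysosomal membrane protein, read 12.16 and 12.26 in eosinophils, 10.58 and 10.57 in neutrophils and 10.67 and 10.77 in basophils (1.56 ± 0.19, adjusted p = 5.31e-05), while the 19 tested lysosome genes gave 1 rise and 3 falls, 5.26% and 15.8%, where all genes had 16.5% and 13.3%.

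Of 8 tested megakaryocyte and platelet genes 4 rose, where 16.5% of all genes did, and none fell against the combined mean. Pf4, platelet factor 4, read 8.40 and 9.77 in eosinophils, 2.30 and 3.12 in neutrophils and 4.86 and 2.30 in basophils (5.94 ± 0.55 log2 units, limma, adjusted p = 6.18e-06). The 4 platelet markers averaged 4.55 and 5.19 in eosinophils, 2.60 and 2.96 in neutrophils and 4.19 and 2.56 in basophils, and the part of platelet RNA in the rise of Pf4 was not tested. Nkg7, a granule membrane protein of cytotoxic lymphocytes, read 11.14 and 11.15 in eosinophils, 3.19 and 4.28 in neutrophils and 11.67 and 12.20 in basophils, while the 4 natural killer cell markers averaged 2.66 on both eosinophil arrays. Birc2, an inhibitor of apoptosis, read 10.47 and 10.85 in eosinophils, 9.13 and 9.29 in neutrophils and 9.06 and 9.07 in basophils (1.53 ± 0.21, adjusted p = 0.000122). The 16 tested apoptosis regulators gave 3 rises and 2 falls, 18.8% and 12.5%, near the 16.5% and 13.3% of all genes.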
